A study of Mus musculus with 8 samples.

Results

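Mitochondrial complex I takes electrons from NADH, passes them to ubiquinone and pumps protons across the inner mitochondrial membrane. Its peripheral arm holds the N module, where NADH is oxidised, and the Q module, where ubiquinone is reduced, while its membrane arm holds the proton pumps. The core subunits of the membrane arm, the pumps among them, are encoded by mitochondrial DNA. The remaining core subunits and all accessory subunits are encoded in the nucleus. T cells build respiratory complexes when they leave rest, and they use NADH oxidation both for energy and to keep making the precursors of growth.

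The nuclear genes of complex I were taken as every row of the count table whose symbol is Nduf followed by A, AB, B, C, S or V and a number, a choice that uses no measured value and leaves out the assembly factors (Ndufaf genes). They numbered 37 of the 46625 rows. Of these, 36 passed the filter on low counts and were among the 14607 genes tested. Ndufs5 did not pass. The 37 genes lie on 15 chromosomes, with at most 5 on any of them (chromosome 17), so they do not form a genomic cluster.

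RNA was measured in sorted 8F10 T cells, whose T cell receptor recognises an insulin peptide. The donors were 8F10 mice that lack the T cell receptor alpha chain and carry CD45.2, and their marrow stem cells, freed of T and B cells, went into sublethally irradiated hosts that carry CD45.1. The hosts were either NOD mice or B16A mice, which are NOD mice whose insulin has a changed residue in the B chain. The 8F10 cells were sorted from the inguinal lymph nodes 6 weeks later, and every sample carries the strain label NOD/ShiLtJ. Each host group had 4 libraries, 1 in each of 4 labelled batches. Whether the libraries of a host group stem from different animals is not stated in the labels. The spread that the p-values measure is that between libraries and may be technical in part. The irradiation was not lethal, so host blood cells were not fully removed.

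The libraries of batch 4 stood apart from the other 6. They held 28301805 (NOD) and 28094237 (B16A) counts, against 4896593 to 6137666 in batches 1 to 3, and had 19751 and 20723 genes with a count against 29729 to 33175. The row Gm10800 took 5.87% to 17.1% of all reads outside batch 4 but 0.00205% and 0.00469% within it. Complex I genes supplied 0.0856% to 0.151% of the reads outside batch 4 (5165 to 9261 per library) but 0.451% and 0.429% within it (127704 and 120476). Every host comparison is therefore given batch by batch as well. T cell genes were read in every library, and so were genes of other cell types. B cell genes summed to 440.2 to 1273.0 CPM in NOD and 429.5 to 653.7 CPM in B16A libraries. Stromal and endothelial genes summed to 287.7 to 377.7 CPM in NOD and 270.9 to 413.9 CPM in B16A libraries. Of the CD4 T cell genes listed next, only Cd4 sets CD4 apart from CD8 T cells. The summed level of 6 CD4 T cell genes (Cd3e, Cd3g, Cd4, Trbc1, Trbc2 and Lck) was 4192.8 to 13951.3 CPM, a read count scaled to the library's effective size, and that of the CD8 genes Cd8a and Cd8b1 was 65.26 to 185.8 CPM.

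Levels differed widely between the subunit genes, although the proteins sit in the complex together. For this comparison CPM was divided by the kilobases of annotated exons. In batches 1 to 3 Ndufa2, a small accessory subunit of the peripheral arm, was highest with 128.0 ± 60.4 CPM per kilobase (SD, n = 6 libraries). Ndufa13, an accessory subunit at the joint of the arms that is also known as GRIM-19, followed with 65.6 ± 21.4, and Ndufb10 of the distal membrane arm with 60.2 ± 8.51, a difference within their spread. Among the genes tested, Ndufb4 was lowest with 1.91 ± 1.18 CPM per kilobase, then Ndufab1, the mitochondrial acyl carrier protein, with 2.49 ± 0.308 and Ndufs1, the largest core subunit, with 3.07 ± 0.609. The ranges of mean ± SD of neighbours in this order overlapped, apart from those of Ndufb10 and Ndufv3, so most ranks carry no weight. The order differed in the 2 batch 4 libraries, where Ndufa2 was again highest with a mean of 469.2 CPM per kilobase. There Ndufa1 (388.2), Ndufa3 (336.9) and Ndufb11 (323.8) stood above Ndufa13 (266.8) and Ndufb10 (139.2). Exon length here is the union of all annotated isoforms, which reaches 8086 bases for Ndufs1, 6883 for Ndufab1 and 5628 for Ndufb2, and a union longer than the RNA present lowers a level per kilobase.

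**Figure D1:**
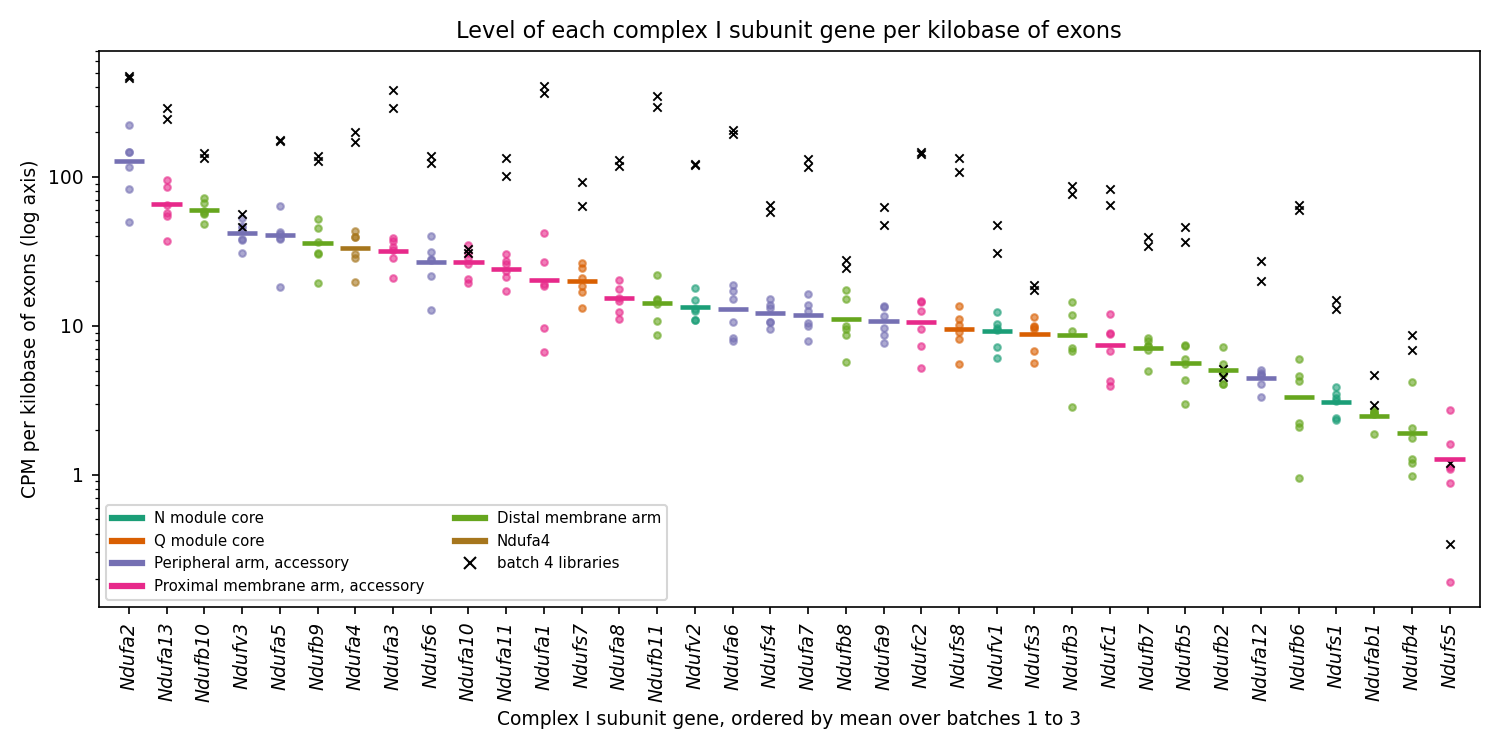
Level of 36 complex I genes in CPM per kilobase of exons (log axis), ordered by the mean over batches 1 to 3. Dots are the 6 libraries of batches 1 to 3, bars their mean, and crosses the 2 batch 4 libraries, which lie above the dots for most genes and among them for Ndufv3, Ndufa10, Ndufb2 and Ndufs5.

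Ndufs5, an accessory subunit on the intermembrane-space side, was nearly unread. It had 8, 5, 1 and 23 counts in the NOD libraries of batches 1 to 4 and 5, 15, 6 and 7 in the B16A libraries. These counts correspond to 1.38, 0.935, 0.163 and 1.03 CPM in NOD and 0.761, 2.34, 0.971 and 0.293 CPM in B16A hosts, so the hosts overlapped and batch 4 was not higher. Of the 50-base stretches in its annotated RNA, 21.7% also occur in the gene model BC002163, a row with 2 to 7 reads per library outside batch 4 but 287 and 258 within it. Reads of that length from the shared stretches could have been left out or assigned to either row. In all, 14 of the 37 genes share no 50-base stretch with another annotated gene on either strand, 23 share some, and 8 share at least 15% (Ndufb6, Ndufa13, Ndufs5, Ndufb4, Ndufs3, Ndufa12, Ndufb11 and Ndufb9). Their values are uncertain to that extent, since the strand setting of the counting is not given in the sources used here.

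Between hosts, no complex I gene passed the test, but most of them stood a little higher in cells from NOD hosts. In edgeR's quasi-likelihood test with batch as a block, 0 of 36 members had a Benjamini-Hochberg adjusted p under 0.05, where 0% of all 14607 genes did in either direction. The smallest adjusted p among the members was 0.683. The fitted log2 fold change, NOD over B16A, was positive for 30 of 36 members, against 51.3% of all genes, and its median was 0.29, against 0.01 for all genes. At an unadjusted p under 0.05 in edgeR, 13 of 36 members were higher in NOD hosts, where 3.55% of all genes were, and 0 were lower, where 2.31% were. With DESeq2 1 member was called, where 0.157% of all genes were called higher and 0.0274% lower. With limma voom 0 were, where 0.0548% of all genes were called higher and 0.00685% lower. The number higher at an unadjusted p under 0.05 leaned on the batch term and on batches 2 and 3. It was 0 (0.116% of all genes) in edgeR without the batch term, and 5 (2.11%) when both batch 4 libraries were left out as well. With the term it was 10 (2.66%) without batch 1, 4 (2.86%) without batch 2, 5 (1.96%) without batch 3 and 13 (4.5%) without batch 4, and in voom it was 8 (4.5%). In bulk samples such as these, fewer cells that express a gene and less RNA per cell cannot be told apart.

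Within batches the same direction was seen at different sizes. The median log2 ratio over the members was 0.30 in batch 1, 0.46 in batch 2, 0.49 in batch 3 and 0.16 in batch 4, and the corresponding medians of all genes were 0.00, 0.05, -0.03 and 0.00. In batches 1 to 4 respectively, 23, 27, 31 and 29 of the 36 members were higher in NOD, while 50%, 53.4%, 48% and 46.4% of all genes were. In all 4 batches 13 members were higher in the NOD library, a pattern shown by 7.43% of all genes, and 0 were lower, a pattern shown by 6.85%. In batches 1 to 3 alone 18 were higher, against 15.4% of all genes. Those 13 were Ndufs1, Ndufs7, Ndufs8, Ndufs6, Ndufa7, Ndufa13, Ndufc1, Ndufb3, Ndufb4, Ndufb5, Ndufb7, Ndufb9 and Ndufb11, which come from every structural group other than Ndufa4. The members' summed level was 1266.7, 983.2, 1513.5 and 5723.0 CPM in the NOD libraries and 1153.4, 805.9, 1159.2 and 5048.3 CPM in the B16A libraries. The NOD sum was the higher one in each batch, but the hosts overlapped, within batches 1 to 3 as well as over all libraries.

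**Figure D2:**
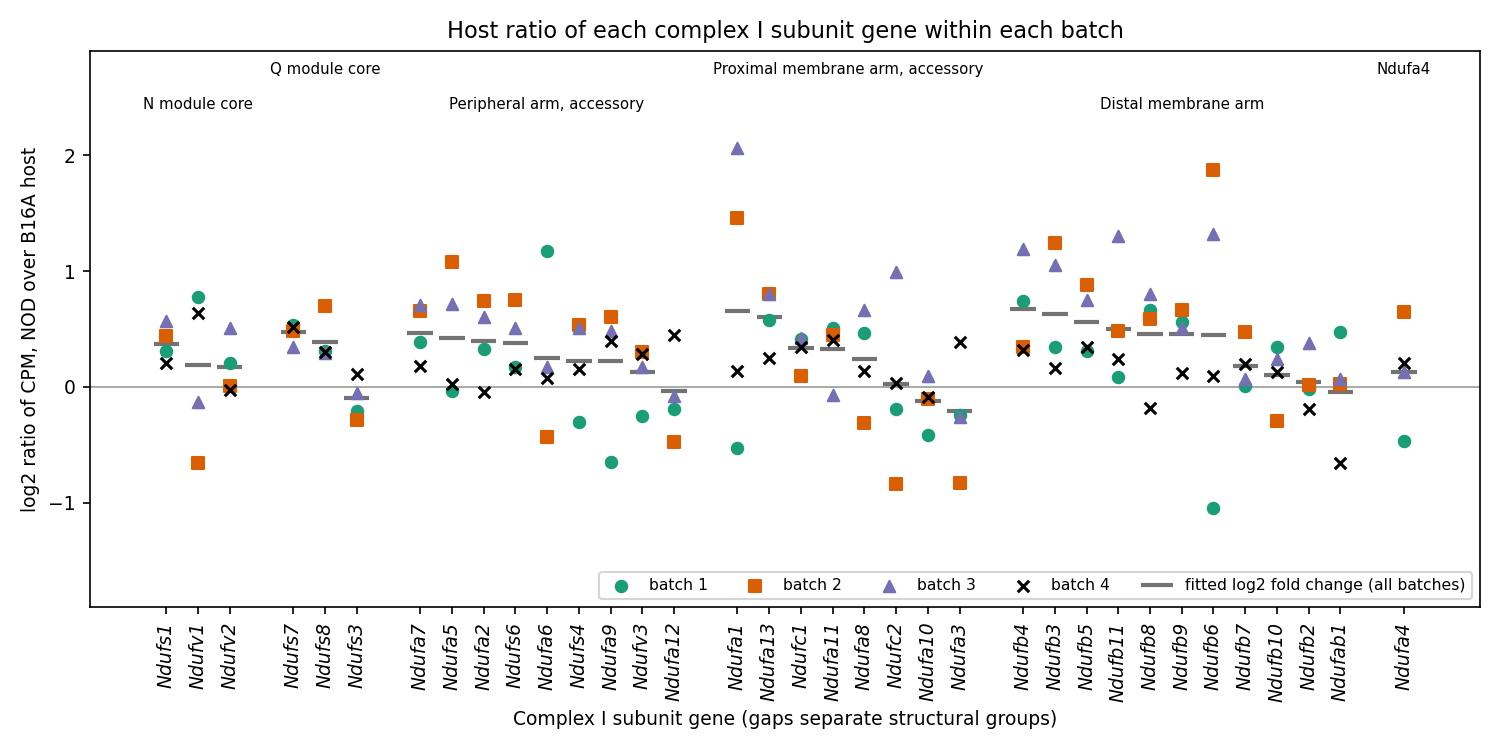
Host ratio (log2 of NOD CPM over B16A CPM) of 35 tested complex I genes, by structural group, with 1 symbol per batch and a bar for the log2 fold change fitted over all batches. Most bars lie above 0 (30 of 35), and the batch 4 crosses lie nearer to 0 than the other symbols for many genes.

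CD4 T cell markers shared the direction of this difference, but not its order of sizes across batches. Their summed level in the NOD and B16A library was 6307.4 and 5701.3 CPM in batch 1, 4803.7 and 4192.8 in batch 2, 8237.8 and 5582.1 in batch 3, and 13951.3 and 10325.8 in batch 4. It was thus higher in the NOD library in 4 of 4 batches, by log2 ratios of 0.15, 0.20, 0.56 and 0.43. A positive fold change was seen in 6 of the 6 marker genes, against 51.3% of all genes. At an unadjusted p under 0.05 in edgeR 3 of the 6 were higher, where 3.55% of all genes were. The myeloid and dendritic cell genes were also positive in 6 of 6, against 51.3% of all genes. Of these 0 were higher at an unadjusted p under 0.05 in edgeR, where 3.55% of all genes were. Their summed level was higher in NOD in 3 of 4 batches, at 99.98 to 127.9 CPM in NOD and 61.17 to 135.5 CPM in B16A libraries. Lyz2, Itgax and Adgre1 were at 0 in some libraries. The summed level of 4 B cell genes (Ms4a1, Cd79a, Cd79b and Ighm) was higher in NOD in 2 of 4 batches, with 440.2 to 1273.0 against 429.5 to 653.7 CPM. Of the remaining lists, CD8 genes were higher in NOD in 2 of 4 batches, NK cell genes in 1, erythroid genes in 3 (Hba-a2 at 0 in all libraries) and stromal and endothelial genes in 1. The part of these cell markers in the complex I difference was not tested.

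The N module carries the flavin and the iron-sulphur clusters that receive electrons from NADH. The fold changes of its 3 core genes were all positive (median log2 0.19), against 51.3% of all genes. Of the 3, 1 was higher at an unadjusted p under 0.05 in edgeR, where 3.55% of all genes were. Ndufs1, which holds several of the clusters, stood at 31.3, 26.4, 27.95 and 120.6 CPM in the NOD libraries of batches 1 to 4 and at 25.3, 19.4, 18.8 and 104.8 CPM in the B16A libraries. The NOD library was higher in each batch, and within batches 1 to 3 the hosts did not overlap. Its log2 fold change was 0.37 (SE 0.16), with an unadjusted p of 0.0390 and an adjusted p of 0.844 in edgeR. Ndufv2, which holds a further cluster, stood at 32.2, 23.6, 38.6 and 257.8 CPM in NOD and 27.9, 23.4, 27.0 and 262.8 CPM in B16A hosts. Here the hosts overlapped and batches 2 and 4 showed almost no difference (log2 fold change 0.17, SE 0.15, edgeR adjusted p 0.953). Ndufv1, the flavin-binding subunit, had a log2 fold change of 0.19 (SE 0.23), with ratios that were positive in 2 of 4 batches.

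The Q module passes electrons on to ubiquinone, and its core genes did not all lie the same way. Ndufs7, which holds the last cluster before ubiquinone, stood at 42.0, 32.0, 45.6 and 158.5 CPM in NOD and 28.9, 22.8, 35.8 and 110.4 CPM in B16A libraries. From batch 1 to batch 4 its log2 ratios were 0.53, 0.49, 0.35 and 0.52, so the NOD library was higher by a similar amount in each. The fitted log2 fold change was 0.48 (SE 0.15), with an unadjusted p of 0.00742 and an adjusted p of 0.734 in edgeR. Ndufs8, which holds the neighbouring clusters, stood at 13.1, 11.8, 17.5 and 172.4 CPM in NOD and 10.5, 7.18, 14.2 and 140.2 CPM in B16A libraries. It was higher in NOD in each batch, with a log2 fold change of 0.39 (SE 0.17, edgeR adjusted p 0.844). Ndufs3, which helps form the base of the ubiquinone site, had a log2 fold change of -0.10 (SE 0.19) and was higher in the NOD library in 1 of 4 batches.

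Among the 9 accessory genes of the peripheral arm, 8 had a positive fold change, against 51.3% of all genes, with a median log2 value of 0.25. Ndufa2, Ndufa5, Ndufa7 and Ndufs6 (4 of the 9) were higher at an unadjusted p under 0.05 in edgeR, where 3.55% of all genes were. Ndufa7 stood at 25.1, 23.0, 29.9 and 240.7 CPM in NOD and 19.2, 14.5, 18.3 and 212.4 CPM in B16A libraries. The NOD values of batches 1 to 3 all lay above the B16A values of those batches, and the log2 fold change was 0.47 (SE 0.16, edgeR adjusted p 0.762). Ndufa2 stood at 84.2, 47.5, 128.1 and 264.3 CPM in NOD and 66.8, 28.4, 84.1 and 272.5 CPM in B16A libraries. The NOD library was higher in batches 1 to 3 and marginally lower in batch 4, and batches differed from each other by more than hosts did (log2 fold change 0.40, SE 0.16, edgeR adjusted p 0.798). Ndufs6, a zinc-binding subunit needed late in assembly, had a log2 fold change of 0.38 (SE 0.17) and was higher in NOD in each batch. Ndufs4, a subunit whose loss in mice and people causes Leigh-like disease, had 0.22 (SE 0.17). The member with a negative value was Ndufa12 (-0.03, SE 0.26).

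The 8 tested accessory genes of the proximal membrane arm had a median log2 fold change of 0.28, with 6 positive, against 51.3% of all genes. Only 1 was higher at an unadjusted p under 0.05 in edgeR, where 3.55% of all genes were. That gene, Ndufa13 (chromosome 8, 69894180 to 69902558 on the minus strand of GRCm38), had the smallest p of all 36 members. It stood at 107.4, 80.8, 118.6 and 362.6 CPM in the NOD libraries of batches 1 to 4 and at 71.7, 46.2, 68.0 and 304.9 CPM in the B16A libraries. Each NOD library of batches 1 to 3 lay above all 3 B16A libraries of those batches, and the log2 ratios were 0.58, 0.80, 0.80 and 0.25. The log2 fold change was 0.60 (SE 0.14), with an unadjusted p of 0.000845 and an adjusted p of 0.683 in edgeR. Ndufa13 was the member called in other fits: edgeR without both batch 4 libraries gave 0.73 with an adjusted p of 0.0348, where 0.159% of 15716 genes were called higher and 0.0445% lower, and DESeq2 with the batch term gave 0.61 with an adjusted p of 0.0282, where 0.157% of genes were called higher and 0.0274% lower. The fit without batch 4 has 2 residual degrees of freedom and limma voom gave an adjusted p of 0.0966, while without the batch term edgeR gave 0.45 with an adjusted p of 1.00. Of its 50-base stretches 28.5% also occur in Tssk6 or Gm12389, rows that held at most 22 counts in any library. How many reads of Ndufa13 from those stretches were left out of the counts was not tested.

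Ndufa11, a membrane subunit of the same region, stood at 33.0, 25.4, 28.6 and 146.3 CPM in NOD and 23.1, 18.6, 29.9 and 110.8 CPM in B16A libraries. The hosts overlapped in batches 1 to 3, because batch 3 showed no difference (log2 fold change 0.33, SE 0.17, edgeR adjusted p 0.875). Ndufa1, a single-span membrane subunit, had the largest fold change of the group, 0.65, but with an SE of 0.35 and log2 ratios from -0.53 in batch 1 to 2.06 in batch 3. Outside batch 4 its level was 2.81 to 17.5 CPM, so few reads stand behind these ratios. The negative members were Ndufa3 (-0.21, SE 0.18) and Ndufa10 (-0.12, SE 0.14), both higher in NOD in 1 of 4 batches.

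In the distal membrane arm 10 of 11 genes had a positive fold change, against 51.3% of all genes. Higher at an unadjusted p under 0.05 in edgeR were 5 (Ndufb3, Ndufb5, Ndufb8, Ndufb9 and Ndufb11), where 3.55% of all genes were. Genes of this arm had the highest median among the structural groups with more than 1 gene, 0.45 on the log2 scale. This order held for the fit with batch as a block. Without the block the N module core was at 0.29 and the distal arm at 0.28, and the distal arm's median ratio in batch 4 (0.13) was the lowest of these groups. The differences between structural groups were not tested. Ndufb5 stood at 37.0, 27.5, 36.6 and 230.6 CPM in NOD and 29.8, 14.8, 21.7 and 181.7 CPM in B16A libraries. It was higher in NOD in each batch by log2 ratios of 0.31, 0.88, 0.75 and 0.34, and the fitted value was 0.56 (SE 0.16, unadjusted p 0.00396, edgeR adjusted p 0.683). Of its 50-base stretches 11.2% also occur in Mrpl47, which overlaps its start on the other strand and had 27 to 62 counts in batches 1 to 3. Ndufb9, which binds the acyl carrier protein, stood at 46.6, 31.8, 53.9 and 143.5 CPM in NOD and 31.5, 20.0, 37.9 and 131.9 CPM in B16A libraries, again higher in NOD in each batch (log2 fold change 0.45, SE 0.16, edgeR adjusted p 0.762).

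The acyl carrier protein gene Ndufab1 behaved differently from most. It stood at 18.1, 17.8, 18.8 and 20.2 CPM in NOD and 12.9, 17.5, 18.0 and 32.0 CPM in B16A libraries. In batches 2 and 3 the log2 ratios were 0.02 and 0.06, batch 1 was higher in NOD and batch 4 higher in B16A hosts, and the fitted value was -0.04 (SE 0.23, edgeR adjusted p 0.998). The largest log2 fold changes of the distal arm were those of Ndufb4 (0.67, SE 0.38) and Ndufb3 (0.63, SE 0.25), genes with 1.87 to 8.01 and 2.19 to 10.9 CPM in batches 1 to 3. Ndufb6, which had 4 to 24 reads per library in batches 1 to 3, ranged from -1.04 in batch 1 to 1.87 in batch 2. Ndufa4, which keeps its complex I name but was later assigned to cytochrome c oxidase, stood at 39.2, 42.3, 59.8 and 275.4 CPM in NOD and 54.2, 27.0, 54.5 and 238.1 CPM in B16A libraries. Its hosts overlapped, with a log2 fold change of 0.13 (SE 0.17, edgeR adjusted p 0.968).

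**Figure D3:**
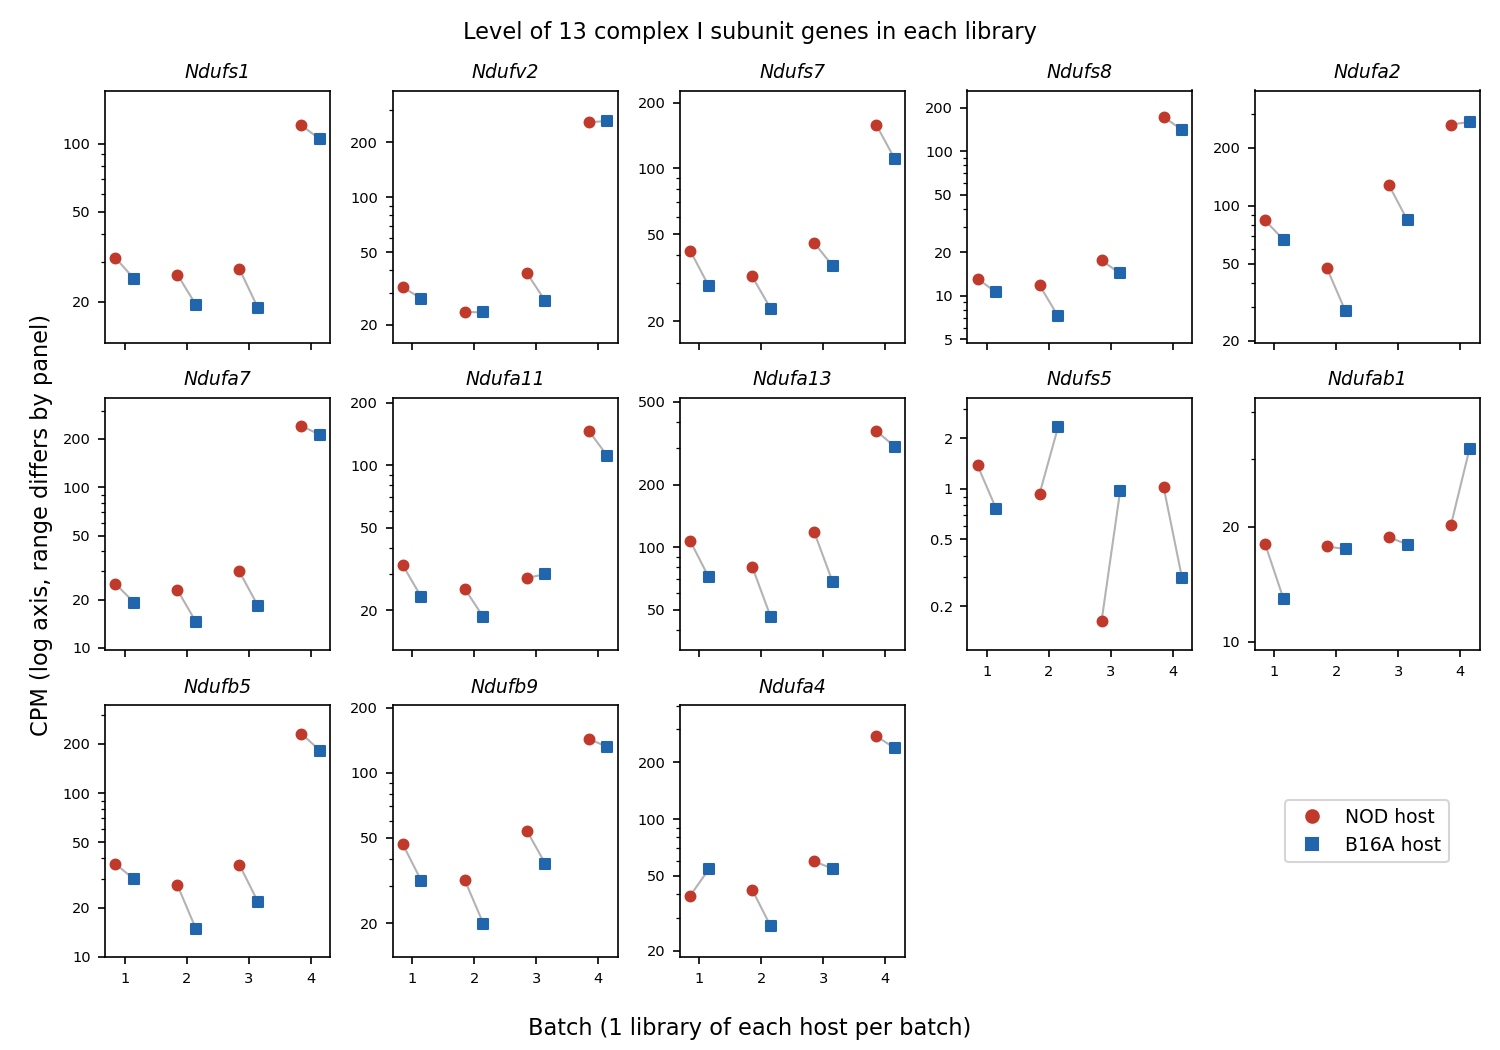
CPM (log axis, range differs by panel) of 13 complex I genes in each of the 8 libraries, with a line joining the NOD and B16A library of a batch. Lines fall from NOD to B16A in all 4 batches for Ndufs1, Ndufs7, Ndufs8, Ndufa7, Ndufa13, Ndufb5 and Ndufb9, while Ndufs5, Ndufab1 and Ndufa4 show both directions.

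Bases upstream of 3 members are shown because nuclear respiratory genes are known for promoters without a TATA box that hold sites for NRF1, ETS factors such as GABP, YY1 and SP proteins. Ndufs8 and Ndufb8 are members with an unadjusted p under 0.05, and Ndufs5 is the member that was nearly unread. Each run holds 150 bases that lie in no annotated exon, from RefSeq's promoter table on GRCm38.p6, and capitals mark letters of a searched motif. It ends 1 base before the start site for Ndufs8 (chr19:3912775-3912924, minus strand) and Ndufb8 (chr19:44555443-44555592, minus strand), and 17 bases before it for Ndufs5 (chr4:123718203-123718352, minus strand).
Ndufs8: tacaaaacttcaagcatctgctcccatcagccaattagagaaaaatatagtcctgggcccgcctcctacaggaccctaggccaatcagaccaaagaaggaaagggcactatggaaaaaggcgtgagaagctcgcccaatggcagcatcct
Ndufb8: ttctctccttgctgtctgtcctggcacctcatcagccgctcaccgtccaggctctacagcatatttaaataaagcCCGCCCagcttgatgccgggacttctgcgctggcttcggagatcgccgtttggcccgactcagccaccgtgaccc
Ndufs5: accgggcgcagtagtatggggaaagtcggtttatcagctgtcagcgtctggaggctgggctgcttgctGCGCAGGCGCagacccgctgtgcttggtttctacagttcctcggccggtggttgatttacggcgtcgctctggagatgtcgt

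The capitals in Ndufb8 are a GC box on the reverse strand, 75 to 70 bases before the start site, and those in Ndufs5 are the NRF1 letters, 98 to 89 bases before it. Over the whole windows of the table (250 bases before and 50 after the start site), 33 of the 37 members had an entry, and all 4 motifs were searched on both strands. The NRF1 motif (GCGCA and GCGC with any 1 base between them) was present in 7 of the 33 (21.2%), against 11.2% of 9927 tested genes and 5.19% of all 27025 genes in the table. YY1's AAGATGGC was present in 7 (21.2%, against 5.17% and 3.19%), and Ndufs6 was in both sets. The ETS letters CCGGAAG were present in 4 (12.1%, against 19.3% and 9.93%), and the GC box GGGCGG in 15 (45.5%, against 65.9% and 38.2%). At least 1 of NRF1, ETS and YY1 was present in 17 members (51.5%, against 31.3% and 16.4%). These are matches of letters only. Of the 13 members higher in NOD in all batches, Ndufb4, Ndufb7, Ndufc1, Ndufs6, Ndufs7 and Ndufs8 had NRF1, ETS or YY1 letters. Ndufa13, Ndufa7, Ndufb3, Ndufb5 and Ndufb11 had an entry with none of NRF1, ETS and YY1. Ndufs1 and Ndufb9, also among the 13, are in neither set. Over all 33 members with an entry the share with such letters was 51.5%, and a link between letters and host difference was not tested.

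Since batch 4 stood apart, its host effect was tested against that of batches 1 to 3. In edgeR's interaction test 0 of 36 members had an adjusted p under 0.05, where 5.87% of all genes did, and 2 had an unadjusted p under 0.05, where 19.5% did. The 2 were Ndufa3 and Ndufb8, which differed in opposite directions. Ndufa3 stood at 29.1, 21.3 and 33.2 CPM in NOD and 34.4, 37.9 and 39.8 CPM in B16A libraries of batches 1 to 3, lower in NOD without overlap, and at 390.4 and 298.3 CPM in batch 4, higher in NOD (interaction 0.83 on the log2 scale, SE 0.31, adjusted p 0.112 in edgeR). Ndufb8 stood at 47.8, 27.1 and 54.6 CPM in NOD and 30.1, 17.9 and 31.2 CPM in B16A libraries of batches 1 to 3, higher in NOD in each, and at 77.0 and 87.3 CPM in batch 4 (interaction -0.88, SE 0.34, adjusted p 0.125 in edgeR). Batch 4 holds 1 library of each host, so the spread in this test comes from batches 1 to 3 alone.

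The largest contrast in complex I genes was between batches, not hosts. Relative to batches 1 to 3, the median member was 2.35 log2 units higher in batch 4, or 5.09 times, while the median of all genes was 0.27 lower (log2 -0.27). Of 36 members, 35 were higher in batch 4, against 44.9% of all genes, and for 33 both batch 4 libraries exceeded all 6 others, against 31.8% of all genes. Both were below all others for 0 members, against 40.4% of all genes. This contrast between batches was not tested. The largest shifts were those of Ndufb11 (4.54), Ndufa1 (4.45) and Ndufb6 (4.30) on the log2 scale. Ndufb11, a membrane subunit, had 7.93 to 19.8 CPM outside batch 4, against 318.2 and 269.9 CPM within it, with no library between. The exceptions were Ndufa10 (64.1 to 115.7 CPM in batches 1 to 3, 102.6 and 108.7 in batch 4), Ndufb2 (22.8 to 40.7, then 25.4 and 29.0) and Ndufv3 (98.5 to 167.8, then 178.8 and 147.1), whose levels overlapped between batches.

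**Figure D4:**
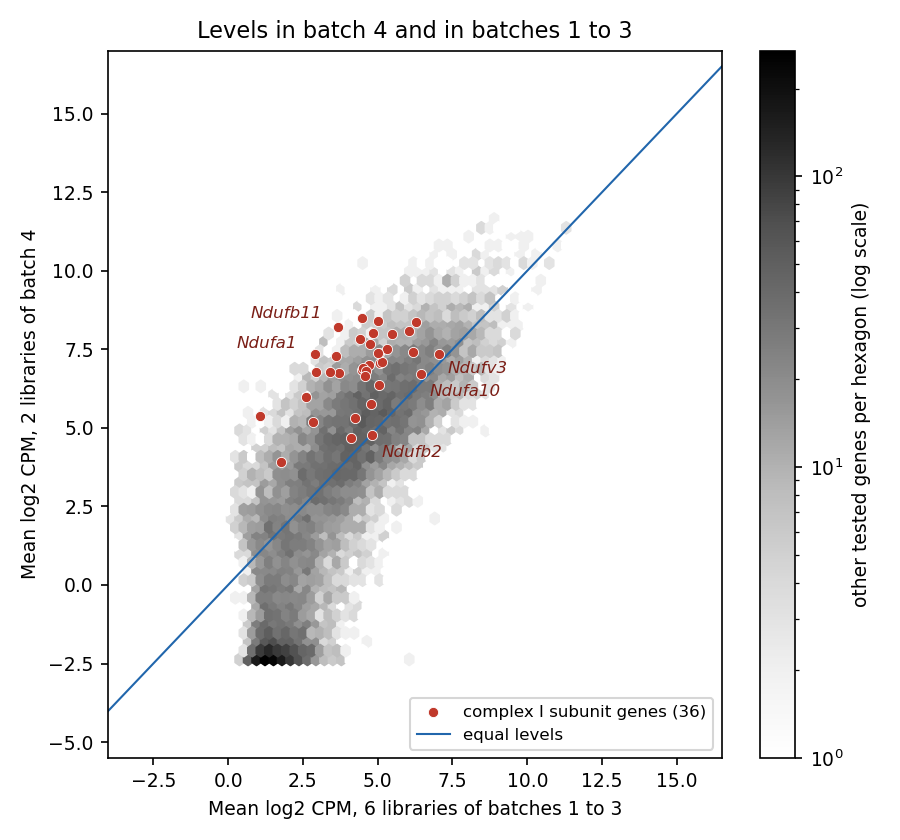
Mean log2 CPM in the 2 batch 4 libraries against that in the 6 libraries of batches 1 to 3 for the 36 tested complex I genes (red) over all other tested genes (grey density). Nearly all red points lie above the line of equal levels, those of Ndufb11 and Ndufa1 farthest, while Ndufv3, Ndufa10 and Ndufb2 lie close to it.

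When all tested genes were divided into 5 bins of equal size by this shift, 29 members fell in the bin with the largest shifts, 6 in the next, 1 in the middle and 0 in the others. All genes of the top bin had median host ratios of 0.05, 0.05, 0.22 and 0.19 in batches 1 to 4, above the medians of all genes tested in batches 1, 3 and 4 but not in batch 2. The 29 members in it had medians of 0.31, 0.53, 0.51 and 0.19, so they lay above the medians of the bin in batches 1 to 3 and at it in batch 4. The 6 members of the next bin had medians of 0.04, -0.04, 0.09 and 0.01, close to 0 throughout. As a description across the 36 members, which share their libraries, the fitted host fold change had a Pearson's r of 0.43 and a Spearman's rho of 0.33 with the batch 4 shift, and -0.32 and -0.33 with exon length. The shift itself had -0.59 and -0.53 with exon length. The part of depth, of library composition and of transcript length in the host difference was not tested.

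Complex I is built with the help of assembly factors that are not part of the finished enzyme. Of 20 genes listed, 17 were in the table and tested. Of these 14 had a positive fold change, against 51.3% of all genes. The median was 0.29, and 0 were called, where 0% of all genes were. In edgeR 1 of the 17 (Cox7a2l) was higher at an unadjusted p under 0.05, where 3.55% of all genes were. The median log2 ratios were 0.01, 0.26, 0.23 and 0.24 in batches 1 to 4. Cox7a2l is in the list although it is a factor of respiratory supercomplexes. Cox7a2l stood at 381.7, 256.4, 462.0 and 251.0 CPM in NOD and 259.6, 133.3, 180.7 and 207.8 CPM in B16A libraries. It was higher in NOD in each batch, with a log2 fold change of 0.78 (SE 0.17, edgeR adjusted p 0.683), and 0.95 with an adjusted p of 0.00228 without batch 4. Unlike the subunits it was not higher in batch 4 (shift -0.17). Ndufaf3, an early assembly factor, stood at 10.2, 6.92, 9.32 and 44.2 CPM in NOD and 5.18, 4.84, 6.96 and 40.5 CPM in B16A libraries (log2 fold change 0.48, SE 0.24, edgeR adjusted p 0.875).

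The mitochondrially encoded subunits had no direction common to the batches. Of 7 genes 5 were tested, with a median of -0.13. A positive fold change was seen in 0, against 51.3% of all genes, and 0 were called, where 0% of all genes were. Their batch medians changed sign, with -0.71, -0.03, 0.26 and -0.27 in batches 1 to 4, and in batch 3 all 5 were higher in the NOD library. Without batch 1 the median fold change was 0.01, so its negative value rested on that batch. mt-Nd4, a proton-pumping subunit, stood at 1095.7, 946.9, 1676.7 and 1425.8 CPM in NOD and 1827.0, 1064.7, 1479.7 and 2072.5 CPM in B16A libraries, so that the hosts overlapped (log2 fold change -0.32, SE 0.16, edgeR adjusted p 0.875). mt-Nd2, another pump subunit, stood at 825.5, 849.7, 1322.1 and 986.3 CPM in NOD and 1360.7, 864.9, 1105.5 and 1382.8 CPM in B16A libraries (-0.24, SE 0.16, edgeR adjusted p 0.933). mt-Nd3 and mt-Nd4l were listed at 0 counts in all 8 libraries. So were mt-Co3, mt-Atp6 and mt-Atp8, which every respiring cell uses, and these zeros are given only as listed. The difference between nuclear and mitochondrial genes was not tested.

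The nuclear genes of complexes II to V, the other respiratory enzymes and ATP synthase, had values like those of complex I. Of 39 genes 38 were tested, and 31 had a positive fold change, against 51.3% of all genes. In edgeR 13 were higher at an unadjusted p under 0.05, where 3.55% of all genes were. The median was 0.22, and 0 were called, where 0% of all genes were. Atp5e, the epsilon subunit of ATP synthase, stood at 125.5, 97.4, 184.2 and 309.4 CPM in NOD and 94.8, 39.5, 85.3 and 299.7 CPM in B16A libraries. Each NOD value of batches 1 to 3 lay above the B16A values there, and batch 4 showed little difference (log2 fold change 0.70, SE 0.19, edgeR adjusted p 0.683, and 0.94 with 0.00778 without batch 4). Cox6c, a small subunit of cytochrome c oxidase, stood at 54.0, 33.5, 75.7 and 234.6 CPM in NOD and 43.4, 19.8, 38.02 and 192.8 CPM in B16A libraries (0.58, SE 0.16, edgeR adjusted p 0.683). This list too was higher in batch 4, by a median of 2.02 log2 units, with 37 of 38 members positive, against 44.9% of all genes. The complex I values are therefore not shown to be particular to complex I.

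Most regulators of mitochondrial gene expression had negative fold changes. Of 12 tested, 2 had a positive fold change, against 51.3% of all genes, and 0 were called, where 0% of all genes were. The median was -0.21 (-0.09 without batch 2, -0.11 without batch 4 and -0.11 without the batch term). In all 4 batches 4 were lower in the NOD library (Pprc1, Esrra, Ppargc1b and Polrmt), as were 6.85% of all genes. Pprc1, a coactivator of the PGC-1 family, stood at 58.3, 61.3, 53.9 and 28.9 CPM in NOD and 65.9, 121.2, 73.3 and 33.7 CPM in B16A libraries (log2 fold change -0.45, SE 0.17, unadjusted p 0.0183, edgeR adjusted p 0.788). Esrra, a nuclear receptor that drives respiratory genes, stood at only 6.195, 3.93, 2.94 and 2.11 CPM in NOD and 7.31, 11.7, 6.15 and 5.70 CPM in B16A libraries (-1.08, SE 0.42, unadjusted p 0.0209, edgeR adjusted p 0.795). For both, the NOD library was the lower one in each batch. Nrf1, a direct activator of nuclear respiratory genes, had -0.21 (SE 0.16) and was higher in NOD in 1 of 4 batches.

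**Figure D5:**
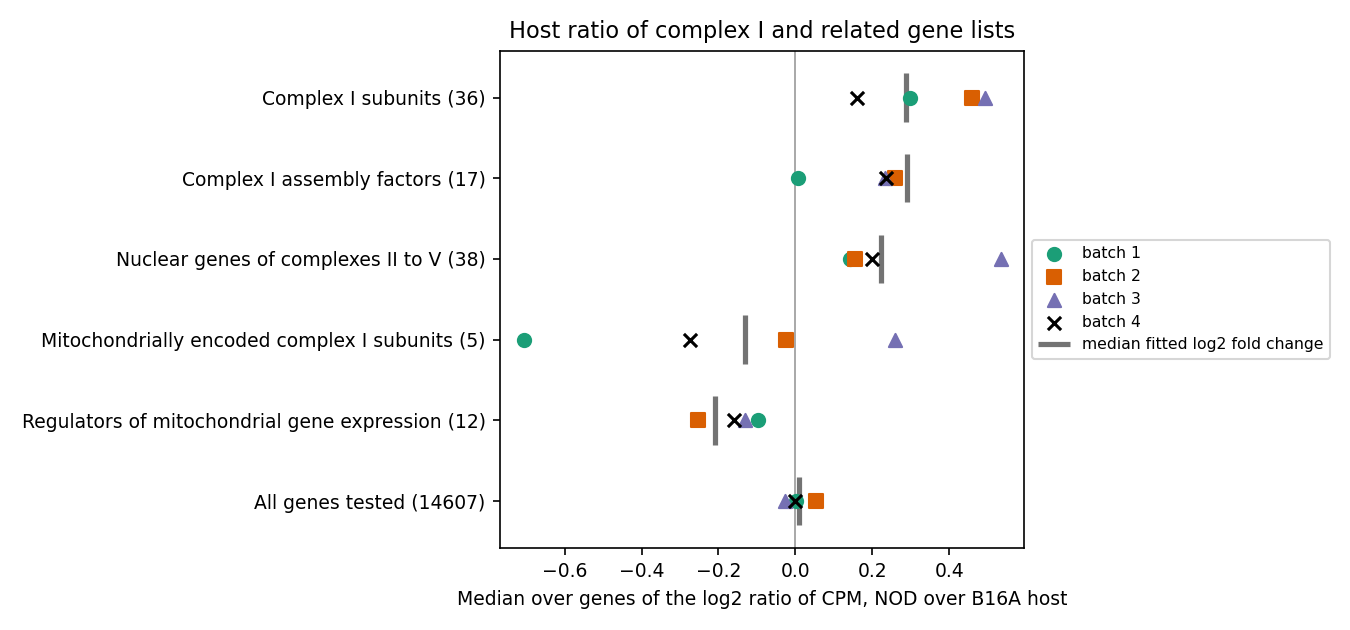
Median host ratio (log2 of NOD CPM over B16A CPM) in each batch for complex I subunits, related gene lists and all tested genes (number of genes in brackets), with a bar for the median fitted log2 fold change. Complex I subunits and complexes II to V lie above 0 in each batch, the regulators lie below 0 in each, and the mitochondrially encoded subunits lie on both sides.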

How the data were processed

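The values are raw read counts per gene symbol that the authors deposited in 1 table for 8 libraries. Per the labels' protocols, cDNA came from SeqPlex amplification, libraries from 12 PCR cycles, and reads were single and 50 bases long. The submitters' processing notes list STAR, HTSeq, DESeq2 and mm10. For annotation and strand setting the sources used here give nothing. Without molecular identifiers, reads are not independent molecules.

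The main test was edgeR 4.0.16 under R 4.3.3 (filterByExpr on host, TMM, robust quasi-likelihood fit, batch as a block), with Benjamini-Hochberg adjustment over 14607 genes and a threshold of 0.05. The filter removed 32018 genes. SEs were derived from the F statistic. CPM uses TMM library sizes, and log2 CPM a prior count of 2. Ratios within batches are differences of log2 CPM. Exon lengths, positions and shared 50-base stretches come from GENCODE vM21 (GRCm38, which mm10 denotes), where 41962 of the gene names matched. Alternatives were no batch term, leaving out each batch, other scalings and filters, DESeq2 1.42.0 and limma 3.58.1. The scripts were tested on simulated data.

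The batches pair the libraries because the labels call the shared number a batch. Deviations from the group means correlated across genes between partners with r = 0.625, 0.702, 0.611 and 0.906 in batches 1 to 4. In batches 2 and 3 at least 1 of the partners correlated better with a library of another batch. The group means include batch 4, so its shift enters the deviations of every library of batches 1 to 3. The correlations therefore cannot check the pairing within those batches. All pairs of libraries differed by more than sampling noise, with chi-square values per degree of freedom of at least 8.53.

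Members, gene lists and rules were chosen with earlier results of these data known. Values in every library are given for members called in any fit, the 2 members of each structural group with the smallest unadjusted p, the members with the highest and lowest level per kilobase over all libraries, and those filtered out. Of each gene list, the 2 genes with the smallest p are named. Genes named beyond this were chosen after their values were seen. The single values of 1 member, which is part of the counts and medians, are not reported here.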

Additional observations from a re-analysis of the deposited data

Results flagged for a closer look

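Within each host, the log2 CPM of every member was searched for a library far from the other 3, by a gap that exceeds Dixon's critical share of the group's range. Chance alone flags about 1 in 20 groups. Of 74 groups 17 were set apart, in 13 genes, and in 16 of them the library was the high one of batch 4. Among NOD hosts, the batch 4 library stood apart for Ndufs1 (6.92), Ndufs8 (7.43), Ndufa3 (8.61), Ndufa7 (7.91), Ndufa11 (7.19), Ndufa12 (5.43), Ndufb5 (7.85), Ndufb7 (7.47) and Ndufb11 (8.31). Among B16A hosts it stood apart for Ndufv2 (8.04), Ndufa3 (8.22), Ndufa7 (7.73), Ndufa8 (6.68), Ndufa12 (4.98), Ndufb10 (7.34) and Ndufb11 (8.08). The remaining case was the B16A library of batch 2 for Ndufv3, which was low at 6.62.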

How the results depend on the processing

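The median complex I log2 fold change stayed at 0.22 to 0.34 in all 12 alternatives, with 0.22 under no replicate block. No member was called in the fit with the replicate block. The count of members called was 0 to 1 when each batch was left out and 1 in DESeq2 with the batch term, that member being Ndufa13 both times (0.73 without replicate 4, 0.61 in DESeq2). The count of members higher at an unadjusted p under 0.05 was 13 with the block and depended on it and on single batches. It was 0 under no replicate block, 4 to 13 when each batch was left out (4 without batch 2, 5 without batch 3), 5 with no replicate block and both batch 4 libraries left out, and 8 in limma voom. The rise of the members in batch 4 was 1.68 with upper-quartile factors and 1.99 with raw library totals, where the median of all genes was -0.93 and -0.62. A library factor moves both medians alike. The median of the regulators of mitochondrial gene expression stayed negative but ranged from -0.31 (without batch 3) to -0.08 (no replicate block and batch 4 left out). That of the mitochondrially encoded subunits turned from -0.13 to 0.01 without batch 1. Depth limits the low members, since Ndufb6 had as few as 4 reads in a library and Ndufs5 as few as 1.

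Of 420 refitted fold changes of single members, 403 kept direction and side of the threshold, 2 passed it, and 15 turned. The 15 belonged to 8 members, whose log2 fold changes in the main fit ran from -0.21 (Ndufa3) to 0.25 (Ndufa6). With no replicate block Ndufa12 and Ndufa3 both gave 0.21. When each batch was left out, the values ran from -0.25 to 0.10 (Ndufa12), -0.03 to 0.31 (Ndufa4), -0.05 to 0.44 (Ndufa6), -0.22 to 0.19 (Ndufab1), -0.07 to 0.14 (Ndufb2), -0.26 to 0.23 (Ndufc2) and -0.02 to 0.44 (Ndufv1). With no replicate block and batch 4 left out, Ndufab1 gave 0.18. In limma voom the values were 0.03 (Ndufa12), -0.02 (Ndufa4) and 0.07 (Ndufab1). Ndufc2 gave -0.00 with upper-quartile factors. The cause was not tested.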
